A study of Mus musculus with 8 samples.

Results

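The genes described here are the feedback inhibitors and transcriptional targets of STAT5 together with the STAT genes around it: Socs2, Socs1, Socs3, Cish, Pim1, Pim2, Osm, Stat5a, Stat5b and Stat6. They were chosen by name. A probe set was taken where the array annotation gave it 1 of these symbols and no other, and a gene's value was that of its brightest probe set by the mean over all arrays. In this way 9 of the 10 genes were measured, by 16 of 22690 probe sets, among 12393 genes in all. No probe set met the rule for Osm, which was not analysed here.

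Expression was measured on Affymetrix arrays in sorted bone marrow cells of C57/BL6 mice, whose age the labels give as 12 weeks in every group. The controls (3 arrays) were LSK cells, the Lin-Sca1+Kit+ fraction enriched for normal stem and multipotent progenitor cells. WT CML LICs (3 arrays) were leukaemia-initiating cells with the same surface markers plus GFP, taken 14 days after transplantation from mice with chronic myeloid leukaemia (CML) induced by retrovirus. Ezh2 KO CML LICs (2 arrays) came from the same model but lacked Ezh2, the histone H3 lysine 27 methyltransferase of Polycomb repressive complex 2. The labels do not describe the leukaemia construct, how Ezh2 was deleted, the animals' sex or whether cells of several mice were pooled, and the age of LIC samples is not tied to donor or recipient. The repeats are called biological by the submitters, and nothing says whether they were separate animals, so a p-value measures the spread between these arrays.

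STAT5A and STAT5B lie downstream of cytokine receptors and their JAK kinases, and in CML the BCR-ABL kinase activates them without a cytokine. Phosphorylated STAT5 dimers enter the nucleus and bind DNA at TTCNNNGAA, a sequence that reads the same on both strands. Among their best-known targets are Cish and the Socs genes, whose proteins carry an SH2 domain and a SOCS box and damp the receptor, and the Pim kinases, which favour survival. In blood stem cells STAT5 also acts below the thrombopoietin, interleukin-3 and stem cell factor receptors.

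The TTCNNNGAA motif was searched in the windows from 250 bases before to 50 bases after annotated starts (GRCm38.p6), which were at hand for 8 of the genes in 11 windows. These starts are not always the outer start of the RefSeq gene. It was found in 2 of these windows, those of Cish and Socs3, and in 8.30% of the 32851 windows of all genes. Both are shown, as feedback genes whose levels are compared below, with the motif in capitals. The Cish window is at chr9:107296409-107296708 on the plus strand and the Socs3 window at chr11:117969317-117969616 on the minus strand, and each is written 5′ to 3′ along the gene.
Cish: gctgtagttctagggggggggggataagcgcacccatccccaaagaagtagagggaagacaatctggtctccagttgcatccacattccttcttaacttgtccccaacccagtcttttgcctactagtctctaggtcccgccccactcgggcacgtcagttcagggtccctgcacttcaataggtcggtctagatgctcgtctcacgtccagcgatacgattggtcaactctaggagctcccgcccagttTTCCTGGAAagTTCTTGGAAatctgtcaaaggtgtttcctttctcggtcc
Socs3: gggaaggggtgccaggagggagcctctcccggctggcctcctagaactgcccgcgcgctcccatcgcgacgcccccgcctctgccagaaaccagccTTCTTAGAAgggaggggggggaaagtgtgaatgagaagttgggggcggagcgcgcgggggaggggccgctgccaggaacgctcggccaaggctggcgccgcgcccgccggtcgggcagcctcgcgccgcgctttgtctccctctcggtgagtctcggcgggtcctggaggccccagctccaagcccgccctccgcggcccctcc

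In the Cish window the motif stood 2 times, 2 bases apart, with the first copy beginning at the annotated start. A window with 2 or more copies was found in 0.457% of the 32851 windows. In the Socs3 window a single copy began 154 bases before that window's annotated start, chr11:117969366. The RefSeq gene begins farther upstream, at chr11:117970336, so this copy lies inside it. The annotated starts of both Stat5b windows likewise lie inside the RefSeq gene. The windows of Socs1, Pim1, Pim2, Stat5a, Stat5b and Stat6 did not hold these letters. No window was at hand for Socs2 or Osm, so their starts were not searched. A match describes the sequence and does not show that STAT5 bound there in these cells.

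The arrays had medians between 6.42 and 6.57 on the log2 scale, the scale of every level below, and 4.01 was taken as background, the highest mean among 27 bacterial control probe sets not added to the samples. Ezh2 was at 8.94 and 9.55 in Ezh2 KO LICs against 11.26 to 11.44 in WT LICs, although whether its probe set lies in the deleted part is not given. Kit, used in the gate, lay between 9.69 and 11.05 on each array. Ly6a, which encodes Sca1, was not analysed here. Some libraries and groups stood apart in other cell-type markers. The Y-linked Eif2s3y was at 1.29 to 1.63 in LSK cells and at 9.21 to 9.80 in LICs, so sex and group cannot be told apart in comparisons with LSK cells. Xist was at 4.35 in WT LIC replicate 3 and at 10.68 or more on each other array. All LIC arrays but that one thus had high Xist and high Eif2s3y. Whether the share of male and female cells differed between the LIC groups was not tested. The summed level of 5 of 6 erythroid markers was 7.06 in WT LIC replicate 3 against 13.10 and 12.23 in WT LIC replicates 1 and 2. It was 11.15 to 11.53 in LSK cells, and 9.68 and 8.66 in Ezh2 KO LIC replicates 1 and 2. The sum of 7 of 8 B cell markers was 12.17 to 12.87 in Ezh2 KO LICs, 8.81 to 9.78 in WT LICs and 9.70 to 10.23 in LSK cells, with Pax5 at or under background on every array. The 6 of 6 monocyte markers measured summed to 12.16 to 12.29 in LSK cells, 10.12 to 11.29 in WT LICs and 10.69 to 10.90 in Ezh2 KO LICs, and 7 of 7 megakaryocyte markers to 10.47 to 11.22, 8.42 to 9.37 and 8.83 to 9.03. In the same order of groups, 7 of 9 stem and progenitor markers summed to 13.37 to 13.45, 12.24 to 12.80 and 12.62 to 12.92, with Mecom at or under background on every array. The sums of 6 of 7 markers of antibody-secreting cells were 11.75 to 12.24, 10.26 to 10.56 and 10.48 to 10.88. Those of 6 of 7 T and NK cell markers, with Cd3g at or under background on every array, were 10.93 to 11.67, 12.01 to 12.14 and 11.69 to 11.88. These last sums were mostly Nkg7 (group means 11.29, 12.05 and 11.76). Klrd1 went the other way, at 5.22, 2.49 and 2.99, and Cd2, Cd3d and Cd3e had group means near background. The 10 of 10 granulocyte markers summed to 13.75 to 13.89 in LSK cells, 14.18 to 14.40 in WT LICs, and 14.17 and 13.29 in Ezh2 KO replicates 1 and 2. The part of these shifts in the results below was not tested, and in bulk samples fewer cells of a type and less RNA per cell cannot be told apart.

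The first comparison asked how the genes differ between WT LICs and normal LSK cells. Of the 9 measured genes 1 rose, Socs2, none fell and 8 did not pass (limma, Benjamini-Hochberg adjusted p under 0.05), against 3.42% of all genes called in either direction, 1.27% higher and 2.15% lower. The median log2 difference of the 9 was 0.23, against 0.02 over all genes, and it was -0.02 without LSK replicate 3 and 0.49 without LSK replicate 1. The 0.49 was the value of Socs1, which lay under background on every array. Arrays of the 2 groups did not overlap for 5 of the 9, 3 higher (Socs2, Socs1 and Cish) and 2 lower (Stat5a and Stat5b), where 26.7% of all genes had no overlap, 13.5% higher and 13.2% lower. By their brightest probe sets, Stat5a and Stat5b were lower on each WT LIC array than on each LSK array.

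Socs2, whose protein damps growth hormone and cytokine receptors, was at 7.82, 8.63 and 8.53 in LSK cells. In WT LICs it was at 11.38, 11.70 and 12.04, and in Ezh2 KO LICs at 11.57 and 11.90. Each LIC array lay far above each LSK array, and the LIC groups overlapped. Between WT LICs and LSK cells Socs2 rose 3.38 on the log2 scale, a 10.4-fold difference (95% interval 2.75 to 4.01, adjusted p = 0.00163, limma). It kept its call under each of 20 alternatives, with differences from 3.13 to 3.75 and adjusted p up to 0.0102.

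The dimmer probe set of Socs2 was also higher on each LIC array than on each LSK array. It read 3.90, 5.85 and 6.96 in LSK cells, 9.19, 9.73 and 10.15 in WT LICs, and 9.11 and 9.75 in Ezh2 KO LICs. Its difference between WT LICs and LSK cells was 4.12 (SE 0.71, limma p adjusted over all probe sets = 0.0334), and that between Ezh2 KO and WT LICs was -0.26 (SE 0.79). Between Ezh2 KO LICs and LSK cells it was 3.86 (SE 0.79) and did not pass (limma p adjusted over all probe sets = 0.0519). The LSK arrays were much farther apart on this probe set than on the brighter one. The brighter one carries an Affymetrix suffix for probes shared among several transcripts, and the dimmer one does not. Whether other transcripts added to its level was not tested.

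**Figure D1:**
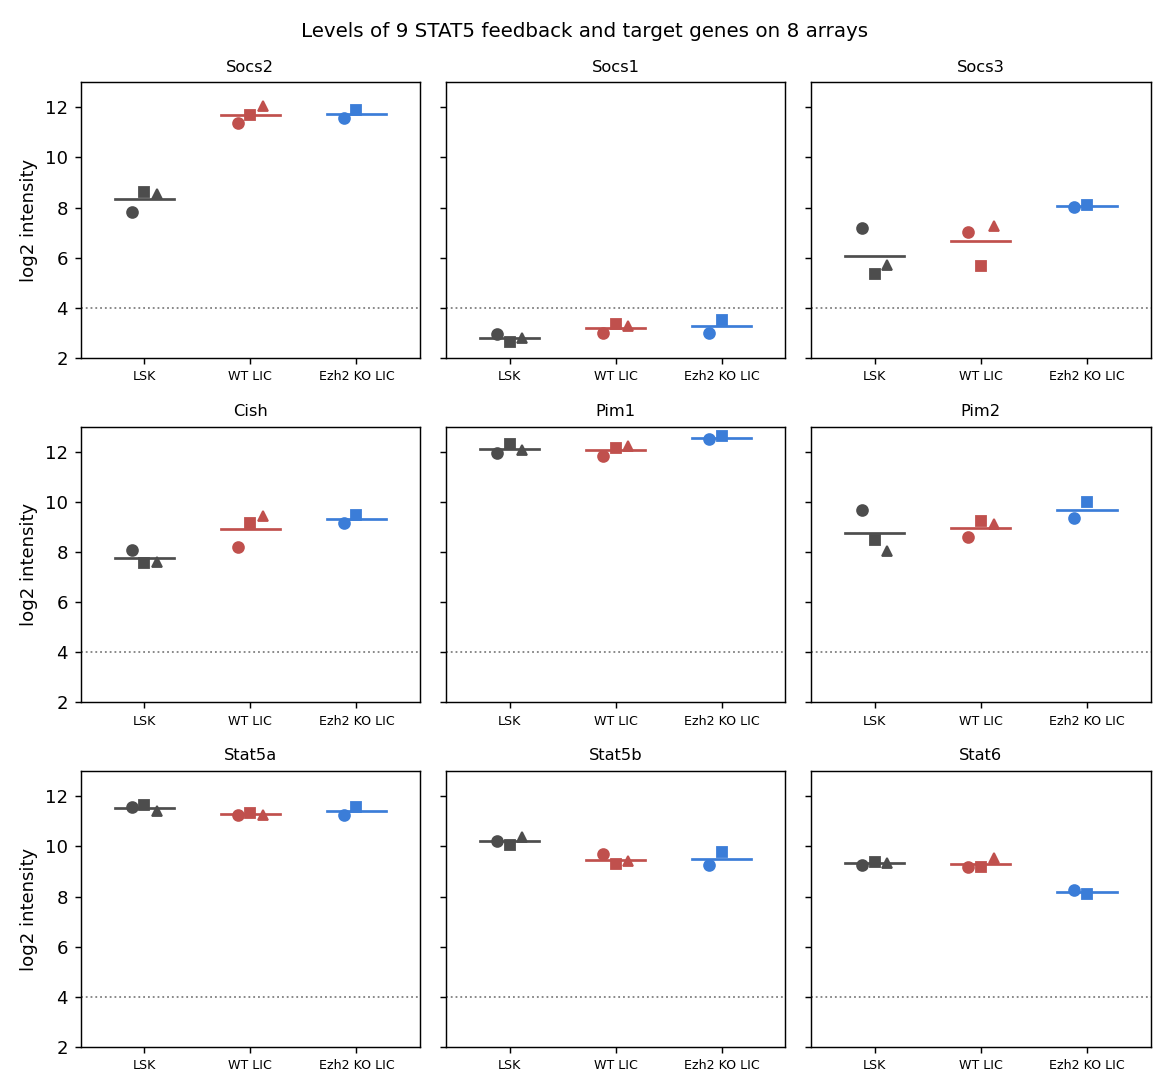
Log2 intensity (y axis) of the 9 measured genes in LSK cells, WT LICs and Ezh2 KO LICs (x axis), with 1 point per array (circle, square and triangle for repeats 1, 2 and 3), the group mean as a line and the background level of 4.01 dotted. Socs2 was high on every LIC array, Stat6 was low on both Ezh2 KO arrays, and Socs1 lay under background throughout.

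Cish, the first described feedback inhibitor of STAT5, was at 8.10, 7.55 and 7.61 in LSK cells. WT LICs had 8.21, 9.17 and 9.43, and Ezh2 KO LICs had 9.17 and 9.47. LIC and LSK arrays did not overlap, but WT LIC replicate 1 was close to LSK replicate 1. The difference between WT LICs and LSK cells was 1.18 (95% interval 0.41 to 1.95) and did not pass (adjusted p = 0.0981, limma). Without WT LIC replicate 1 it was 1.55 and passed (adjusted p = 0.0395), and over the other 19 alternatives it did not. That array, which was also the lowest of the 3 WT LIC arrays in Socs2, Pim1 and Pim2, had the highest sums of erythroid markers and of 5 of 6 basophil and mast cell markers (13.05, against 12.25 and 11.92), and the part of this was not tested.

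Socs1, an inhibitor that binds JAK kinases directly, lay under background on each of the 8 arrays, between 2.62 and 3.53, so its lack of overlap gives no fold. Socs3, which blocks signalling from gp130 and other receptors, was at 7.19, 5.33 and 5.69 in LSK cells and at 7.02, 5.68 and 7.27 in WT LICs. These groups overlapped widely, and the difference of 0.59 did not pass (95% interval -0.73 to 1.90, adjusted p = 0.614, limma).

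The Pim kinase genes did not separate WT LICs from LSK cells. Pim1 was at 11.95, 12.30 and 12.07 in LSK cells and at 11.85, 12.14 and 12.24 in WT LICs, a difference of -0.03 whose 95% interval ran from -0.41 to 0.35. A second Pim1 probe set lay under background on all 8 arrays, at 3.47 or lower. Pim2, on the X chromosome, was at 9.70, 8.50 and 8.04 in LSK cells and at 8.59, 9.24 and 9.10 in WT LICs. Its difference of 0.23 was small beside the spread of the LSK arrays (95% interval -0.77 to 1.23).

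The STAT genes were level or lower in WT LICs. Stat5b was at 10.24, 10.07 and 10.38 in LSK cells, 9.72, 9.31 and 9.41 in WT LICs, and 9.27 and 9.76 in Ezh2 KO LICs. Each LIC array lay below each LSK array, yet the difference of -0.75 (95% interval -1.19 to -0.31) did not pass over all genes (adjusted p = 0.0782, limma), and passed only with array weights among the 20 alternatives (adjusted p = 0.037). The dimmer Stat5b probe set differed by 0.02 (SE 0.48), and with the mean of both the difference was -0.36.

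Stat5a, the neighbouring and closely similar gene on chromosome 11, was at 11.57, 11.66 and 11.42 in LSK cells and at 11.24, 11.35 and 11.27 in WT LICs. The LSK arrays were higher by a small margin, and the difference of -0.26 did not pass (95% interval -0.60 to 0.07, adjusted p = 0.349, limma). Because the genes are so similar, their probe sets may share RNA, which was not tested. The dimmer Stat5a probe set differed by -0.24 (SE 0.25), with WT LIC replicate 1 (5.64) above each LSK array. Stat6, which carries interleukin-4 signals, was at 9.27, 9.39 and 9.35 in LSK cells and at 9.20, 9.17 and 9.55 in WT LICs. These arrays overlapped, with a difference of -0.03 (95% interval -0.38 to 0.32).

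**Figure D2:**
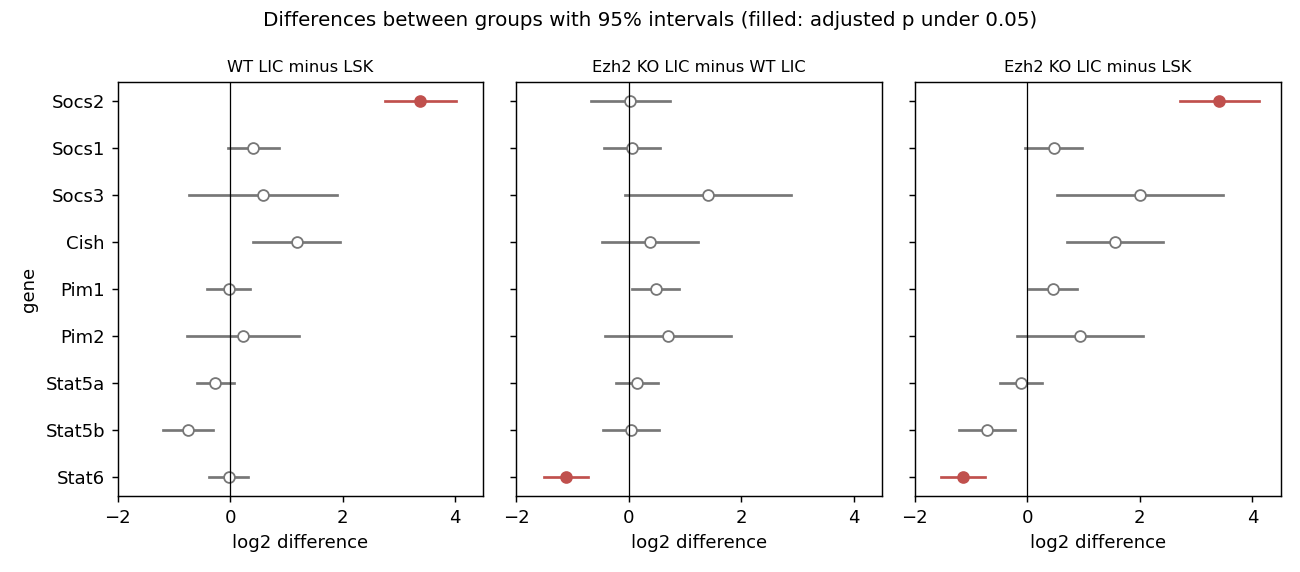
Log2 differences (x axis) of the 9 genes (y axis) in the 3 comparisons, with 95% intervals from limma that are not adjusted for the number of genes. Filled red points mark an adjusted p under 0.05, reached by Socs2 against LSK cells in both LIC groups and by Stat6 in both comparisons of Ezh2 KO LICs.

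The second comparison asked what changes within LICs when Ezh2 is missing. Stat6 fell, none of the 9 genes rose and 8 did not pass, against 0.637% of all genes called, 0.589% higher and 0.0484% lower. The median difference of the 9 was 0.15, against -0.05 over all genes, and it was -0.01 without Ezh2 KO replicate 2 and 0.32 without Ezh2 KO replicate 1. The 0.32 was again the value of Socs1, under background on every array. Arrays did not overlap for 4 genes, Socs3, Pim1 and Pim2 higher and Stat6 lower, where 29.8% of all genes had no overlap, 13.2% higher and 16.6% lower.

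Stat6 was at 8.26 and 8.12 in Ezh2 KO LICs, below each of the 6 other arrays, the lowest of which read 9.17. It fell by 1.12 on the log2 scale from WT to Ezh2 KO LICs, a 2.18-fold difference (95% interval -1.51 to -0.73, adjusted p = 0.0363, limma). The call was lost under 10 of 20 alternatives, while the value stayed between -1.19 and -0.81. Among these were 7 of the 8 fits that left out an array: without LSK replicates 1, 2 and 3 the adjusted p was 0.0773, 0.0755 and 0.0941, without WT LIC replicates 1 and 2 it was 0.1 and 0.0899, and without Ezh2 KO replicates 1 and 2 it was 0.113 and 0.216. The dimmer Stat6 probe set was at 6.30 and 5.77 in Ezh2 KO LICs and at 6.49, 6.42 and 6.66 in WT LICs. It moved in the same direction by a smaller amount (-0.49, SE 0.20) that did not pass (limma p adjusted over all probe sets = 0.451).

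Socs2 showed no detectable response to loss of Ezh2. The difference was 0.03, and its 95% interval of -0.67 to 0.73 leaves room for a change of up to that size. Cish differed by 0.38 (95% interval -0.48 to 1.24), Stat5a by 0.15 (95% interval -0.22 to 0.52) and Stat5b by 0.04 (95% interval -0.46 to 0.53). In each of these 4 genes the arrays of the LIC groups overlapped. The dimmer Stat5a probe set went the other way, by -0.54 (SE 0.28), and did not pass (limma p adjusted over all probe sets = 0.556). Against LSK cells it differed by -0.78 in Ezh2 KO LICs (SE 0.28, adjusted p = 0.192). The dimmer Stat5b probe set differed by -0.37 between the LIC groups (SE 0.54).

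Socs3 was at 8.02 and 8.12 in Ezh2 KO LICs, above each of the 6 other arrays. The difference from WT LICs was 1.41 (95% interval -0.06 to 2.89) and did not pass (adjusted p = 0.463, limma), with WT LIC replicate 2 more than 1 log2 unit below the other WT LIC arrays. The other Socs3 probe sets gave differences of 1.36 (SE 0.61) and 1.05 (SE 0.44). The brightest 2 of its 3 probe sets carry the suffix that Affymetrix gives to probes shared with other sequences.

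Pim1 was at 12.50 and 12.62 in Ezh2 KO LICs, above each WT LIC and LSK array. Its difference from WT LICs, 0.48 (95% interval 0.05 to 0.90), did not pass over all genes (adjusted p = 0.397, limma). Pim2 was at 9.35 and 10, a difference of 0.70 that was within the spread of its interval (-0.42 to 1.82, adjusted p = 0.625). The sum of B cell markers given above was higher in the same Ezh2 KO arrays, and its part in the levels of Stat6, Socs3 and the Pim genes was not tested.

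**Figure D3:**
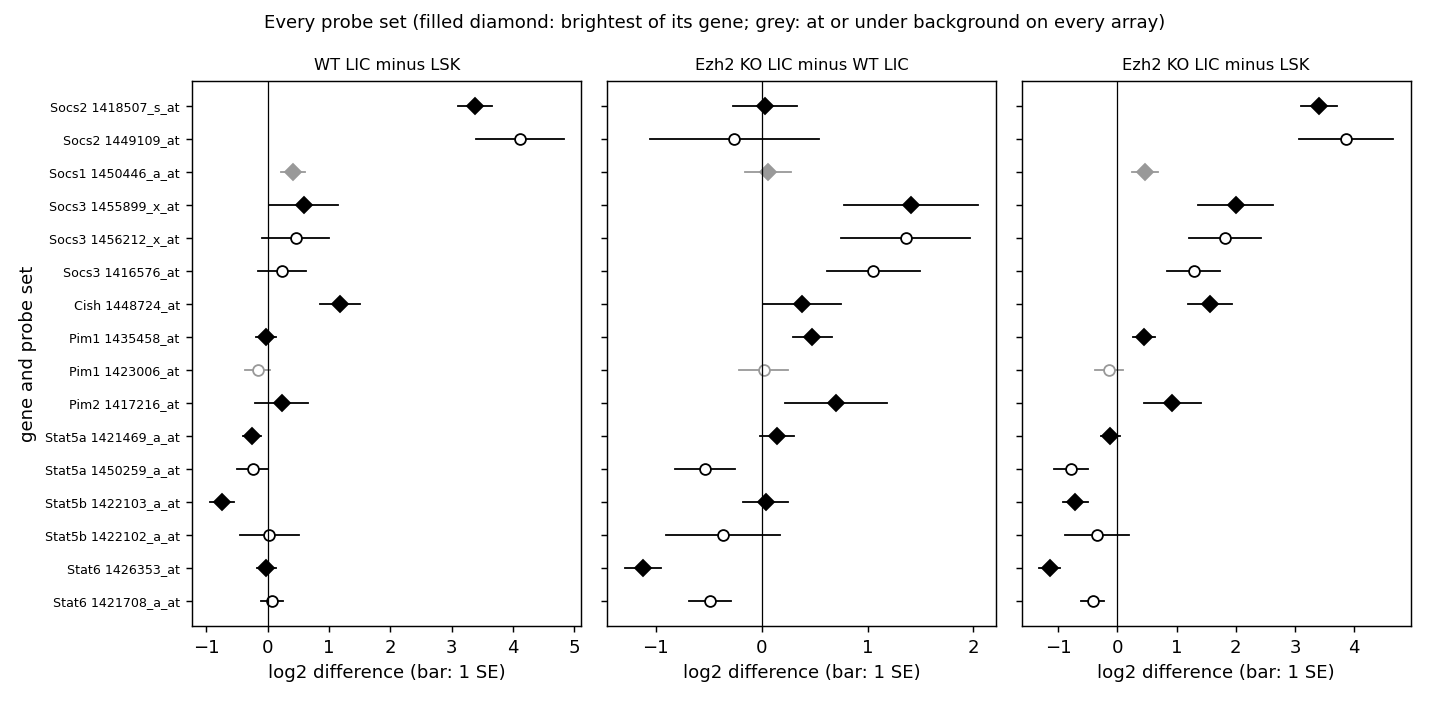
Log2 differences (x axis) for each of the 16 probe sets (y axis) in the 3 comparisons, with bars of 1 standard error. Filled diamonds are the brightest probe set of a gene, and grey marks those at or under background on every array, which were Socs1 and the dimmer probe set of Pim1. Both Socs2 probe sets lay far to the right against LSK cells, and both Stat6 probe sets lay to the left in Ezh2 KO LICs.

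The third comparison set Ezh2 KO LICs against LSK cells, and shares its arrays with the other comparisons. Socs2 rose, Stat6 fell and 7 did not pass, against 3.47% of all genes called in either direction, 1.61% higher and 1.86% lower. The median difference was 0.47, against -0.02 over all genes, and 0.73 without Ezh2 KO replicate 1. Both 0.47 and 0.73 were the values of Socs1, which lay under background on every array and gives no fold. Arrays did not overlap for 7 of the 9 genes, 5 higher (Socs2, Socs1, Socs3, Cish and Pim1) and 2 lower (Stat5b and Stat6), where 38.7% of all genes had no overlap, 18.2% higher and 20.5% lower.

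Socs2 was 3.41 higher on the log2 scale (95% interval 2.71 to 4.11, adjusted p = 0.0031, limma), and was called under each of 20 alternatives. Its dimmer probe set, given above, rose as well but did not pass in this comparison. Stat6 fell by 1.15 (95% interval -1.54 to -0.76, adjusted p = 0.0189, limma). Its dimmer probe set differed by -0.42 (SE 0.20) and did not pass (limma p adjusted over all probe sets = 0.309). The Stat6 call was lost under 4 of 20 alternatives: with the repeat number as a block, and without LSK replicate 3 or Ezh2 KO replicate 1 or 2 (adjusted p = 0.052, 0.0744 and 0.106). Cish differed by 1.56 (95% interval 0.70 to 2.42) and did not pass (adjusted p = 0.0666), but passed under 5 alternatives, among them the fits without WT LIC replicate 1 (adjusted p = 0.0326) and without WT LIC replicate 3 (0.047). Socs3 differed by 2.00 (95% interval 0.53 to 3.47, adjusted p = 0.137), Pim1 by 0.45 (adjusted p = 0.231), Pim2 by 0.93 (adjusted p = 0.348) and Stat5b by -0.71 (adjusted p = 0.12), and none of these passed.

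The genes around STAT5 were read from 4 lists by role, of which 74 genes were measured. Between WT LICs and LSK cells 6 of the 74 were called, 2 higher and 4 lower (8.11%, against 3.42% of all genes). None was called between Ezh2 KO and WT LICs (limma), where 23 had an unadjusted p under 0.05, 12 higher and 11 lower. Over all genes that threshold was passed by 11.1% in this comparison, 6.16% higher and 4.97% lower. Between Ezh2 KO LICs and LSK cells 8 were called, 3 higher and 5 lower (10.8%, against 3.47%). Without WT LIC replicate 3 these counts were 15, 2 and 15. The last count was 3 or 4 without any 1 of the LSK arrays, the Ezh2 KO arrays or WT LIC replicate 1. The median differences were -0.19, 0.10 and -0.19.

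Among 27 receptor genes, 4 fell and none rose in WT LICs against LSK cells (14.8%, against 3.42% of all genes, 1.27% higher and 2.15% lower). Ghr, the growth hormone receptor that SOCS2 restrains, was at 7.37, 6.37 and 7.18 in LSK cells and under background on each WT LIC array, at least 7.82-fold lower (adjusted p = 0.00557, limma). In Ezh2 KO LICs it was at 4.93 and 5.36, which did not pass against LSK cells (-1.83, adjusted p = 0.0714) or against WT LICs (adjusted p = 0.173). Il6ra, the ligand-binding chain of the interleukin-6 receptor, fell by 1.68 (SE 0.15, adjusted p = 0.00276) and Kit, the stem cell factor receptor of the gate, fell by 1.19 (SE 0.14, adjusted p = 0.00886).

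The chains of the receptors for interleukin-3 and GM-CSF moved in different directions. Csf2rb, the shared beta chain (in mice Csf2rb2 is a close copy, and probes may share RNA, which was not tested), was at 7.82, 6.85 and 7.94 in LSK cells, at 8.75, 8.84 and 9.0 in WT LICs and at 9.47 and 9.12 in Ezh2 KO LICs. It rose 1.76 in Ezh2 KO LICs against LSK cells (SE 0.33, adjusted p = 0.0354, limma), and its difference of 1.33 in WT LICs did not pass (adjusted p = 0.0573). Csf2ra, the GM-CSF-binding alpha chain, was at 8.20, 7.87 and 8.13 in LSK cells, 6.63, 6.97 and 7.27 in WT LICs, and 5.93 and 6.35 in Ezh2 KO LICs. It fell by 1.11 in WT LICs (SE 0.21, adjusted p = 0.0366) and fell by 1.93 in Ezh2 KO LICs (SE 0.24, adjusted p = 0.01). Il3ra, the interleukin-3-binding chain, fell by 1.01 in Ezh2 KO LICs (SE 0.20, adjusted p = 0.0397) and differed by -0.27 in WT LICs (adjusted p = 0.444).

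Several receptor calls were lost when 1 array was left out, and several under other settings. Median centring lost those of Csf2ra in WT LICs and of Il3ra, Il6ra and Kit in Ezh2 KO LICs. The trended robust prior lost the same ones except Kit, and quantile normalization lost Il3ra. The compared groups alone and the replicate block each lost Csf2ra in WT LICs and Csf2rb, Il3ra, Il6ra and Kit in Ezh2 KO LICs. The mean of all probe sets lost Csf2ra in both LIC groups and Il6ra in Ezh2 KO LICs. With the mean of all its probe sets Csf2ra differed by -1.13 in WT LICs (adjusted p = 0.151, limma) and by -1.21 in Ezh2 KO LICs (adjusted p = 0.171) against LSK cells, and both calls were lost. For Csf2ra in WT LICs 7 of the 8 fits that left out an array lost the call, with an adjusted p of up to 0.112, and WT LIC replicate 3 was the exception. Without either Ezh2 KO array, which are outside this comparison, the call was lost while the difference stayed at -1.11. Against LSK cells in Ezh2 KO LICs, the Csf2ra call was also lost without Ezh2 KO replicate 1 (adjusted p = 0.0591), the Csf2rb call without any 1 array but LSK replicate 2 or WT LIC replicate 3 (up to 0.167), and the Il3ra call without any 1 array but WT LIC replicate 3 or Ezh2 KO replicate 1 (up to 0.157). Il6ra and Kit, also called lower in Ezh2 KO LICs against LSK cells (-0.89 and -0.78, adjusted p = 0.0377 and 0.0455), lost these calls under 11 of 20 alternatives each. In WT LICs they kept theirs under each of the 20.

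Of 10 kinases and other STAT genes, none was called in WT LICs against LSK cells (limma), with 5 lower and none higher at an unadjusted p under 0.05, which 20.6% of all genes passed in this comparison, 9.33% higher and 11.2% lower. Stat3 had the smallest p (-0.61, adjusted p = 0.0964). Stat4, which carries interleukin-12 signals in lymphocytes, fell by 1.03 in Ezh2 KO LICs against LSK cells (SE 0.20, adjusted p = 0.0375), a call lost under 9 of 20 alternatives (up to 0.169 without Ezh2 KO replicate 1). Between the LIC groups the smallest p was that of the tyrosine kinase gene Fes (-0.73, adjusted p = 0.394).

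Of 16 other genes listed here as inhibitors or other regulators of the pathway, among them Ptpn11 and Sh2b1, none was called in any comparison (limma). At an unadjusted p under 0.05 there were 3, 2 and 2 in the order of the comparisons above. The shares of all genes under that threshold are given above for the first and second comparisons, and in the third it was 19.2%, 8.84% higher and 10.4% lower. Pias2, a SUMO ligase of the family that inhibits STATs, had the smallest p against LSK cells, with differences of 0.40 in WT LICs (adjusted p = 0.164) and 0.58 in Ezh2 KO LICs (adjusted p = 0.0931). Socs7 had the smallest p between the LIC groups (-1.11, adjusted p = 0.282).

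Of 21 other genes reported as STAT5 targets, 2 rose and none fell against LSK cells in either LIC group, Id1 and Cdkn1a. This was 9.52% in each LIC group, where 1.27% of all genes were called higher in WT LICs and 1.61% in Ezh2 KO LICs. Id1, an inhibitor of helix-loop-helix transcription factors, was at 5.37, 5.08 and 4.70 in LSK cells, 7.96, 8.53 and 8.09 in WT LICs, and 9.02 and 8.96 in Ezh2 KO LICs. It rose 3.14 (SE 0.22, adjusted p = 0.000957, limma) and 3.94 (SE 0.25, adjusted p = 0.000616). Cdkn1a, which encodes the cell-cycle inhibitor p21 and is also a target of p53, was at 6.06, 6.0 and 6.91 in LSK cells, at 8.63, 8.63 and 9.17 in WT LICs and at 10.51 and 9.83 in Ezh2 KO LICs. It rose 2.49 (SE 0.31, adjusted p = 0.00979) and 3.85 (SE 0.35, adjusted p = 0.00317). Both genes kept these calls under each of 20 alternatives. Between the LIC groups neither passed, with differences of 0.80 for Id1 (adjusted p = 0.293) and 1.36 for Cdkn1a (adjusted p = 0.205). Against LSK cells, 4 of the 21 were higher and 4 lower in WT LICs at an unadjusted p under 0.05 (limma). In Ezh2 KO LICs 5 were higher and 2 lower. Over all genes the shares were 9.33% and 11.2%, and 8.84% and 10.4%. Bcl6 did not pass at -2.11 in WT LICs (adjusted p = 0.0528) and -2.36 in Ezh2 KO LICs (0.053). Nor did Id2 at 1.52 and 1.69 (0.0557 and 0.0562) or Tfrc at 1.30 and 0.94 (0.0545 and 0.157).

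**Figure D4:**
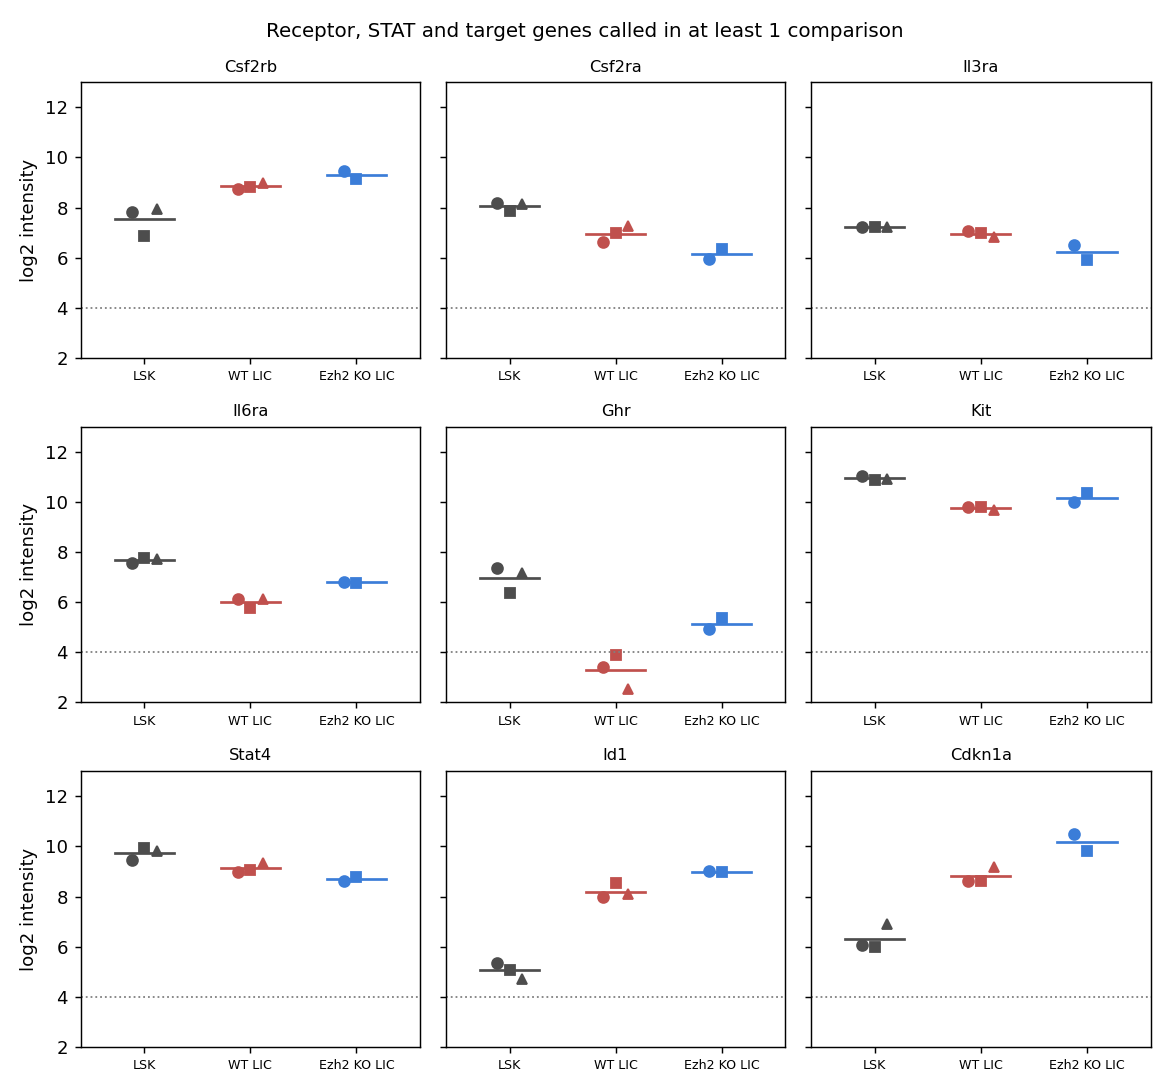
Log2 intensity (y axis) of the 9 receptor, STAT and target genes outside the members that were called in at least 1 comparison, by group (x axis), drawn as in the plot of the members' levels. Id1 and Cdkn1a were higher on each LIC array than on each LSK array, Csf2rb was higher and Csf2ra lower on LIC arrays, and Ghr was under background on each WT LIC array.

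The genes whose levels followed Socs2 most closely over the 8 arrays were Eny2, Ccn3, Ifitm1, Eif2s3y and Kdm5d, with Pearson's r of 0.987, 0.987, 0.985, 0.982 and 0.982 among 6688 genes compared. Eif2s3y and Kdm5d are Y-linked, and their group means, like that of Socs2, were low in LSK cells and high in both LIC groups. Those closest to Stat6 were Ifitm2, Bcdin3d, Ambra1, Babam2 and Gsto1, with r from 0.948 to 0.984, and each had its lowest group mean in Ezh2 KO LICs. These values describe 8 arrays in 3 separate groups.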

How the data were processed

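The deposited values were linear intensity values, 1.94 to 19343.1, for 22690 probe sets on 8 arrays; the authors used RMA per the submitters' processing notes, with no version given. Per the labels' protocols, cells were sorted 2 times into lysis buffer and RNA was amplified before labelling. Log2 was taken with no pseudocount. Control probe sets (64) and those with several symbols (691) or not listed (1555) were left out, and 20351 of 20380 remaining probe sets matched RefSeq (GRCm38.p6) by gene number. Groups were fitted together in limma 3.58.1 (R 4.3.3, lmFit and eBayes, 5 residual degrees of freedom), with 2-sided p-values adjusted by Benjamini-Hochberg over 12393 genes. Fits were tested on simulated data. Exact permutation tests of single genes cannot go below p = 0.1 with these numbers and were not used. For a group averaging 4.01 or less, the fold is a lower bound against that level. Members, role lists and markers were chosen with earlier results of these data known. All members were named, with the called genes of each role list or, failing these, that with the smallest p. So were the 5 genes most like Socs2 and Stat6 among those with a group mean above 7.16, the median gene mean. Bcl6, Id2 and Tfrc were named outside this rule. Other genes as near the threshold were not, among them the receptor genes Il7r, Crlf2 and Flt3 (limma adjusted p = 0.0557, 0.0606 and 0.0654 in WT LICs against LSK cells, each lower). Hybridisation batch is not given, so batch and group cannot be told apart. Plots used matplotlib 3.10.9.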

Additional observations from a re-analysis of the deposited data

How the results depend on the processing

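There were 20 alternatives for each gene (19 for Pim2, Socs1, Socs7 and Ghr), and no called difference turned its sign in these. The count of 1 called STAT5 gene between WT LICs and LSK cells became 2 with array weights and ranged from 1 to 2 when single arrays were left out. The count of 1 between Ezh2 KO and WT LICs became 0 in the fit of the compared groups alone, with the mean of all probe sets and with the replicate block, and ranged from 0 to 1 without single arrays. The count of 2 between Ezh2 KO LICs and LSK cells became 1 with the replicate block and 3, with Cish added, with the 40th percentile filter, the trended robust prior and the compared groups alone, and ranged from 1 to 3 without single arrays. Of the pathway genes, the count of 6 between WT LICs and LSK cells became 12 among the 7436 genes above the 40th percentile, 11 with a trended robust prior and 16 with array weights, and ranged from 5 to 15 without single arrays. The count of 0 between the LIC groups ranged from 0 to 2 without single arrays, and the count of 8 between Ezh2 KO LICs and LSK cells became 5 after median centring, 3 with the replicate block, and ranged from 3 to 15 without single arrays. The causes were not tested. Over all genes the calls ranged from 176 to 917 (from 424), 25 to 146 (from 79) and 118 to 643 (from 430) in the order of the comparisons. Median centring moved the median difference of all genes between WT LICs and LSK cells from 0.02 to 0.13 and raised the percentage of higher genes among its calls from 37.0% to 54.1%. For Ezh2 KO LICs against LSK cells that percentage went from 46.5% to 59.7%. Leaving out genes of the X and Y chromosomes, chosen after the data were seen, left the counts of called STAT5 genes at 1, 1 and 2. The repeat numbers were not taken to pair the arrays. The deviations of same-numbered arrays correlated at -0.05, -0.02 and -0.02 between WT LICs and LSK cells, at 0.14 and 0.02 between Ezh2 KO and WT LICs, and at -0.02 and -0.01 for Ezh2 KO LICs against LSK cells. Of these 7 pairs 1 held an array that correlated best with its own number, Ezh2 KO replicate 1 against WT LICs. With the replicate block Stat6 differed by -1.06 (adjusted p = 0.159) between the LIC groups and by -1.08 (0.0724) against LSK cells. Few arrays limit the precision, with a median SE over genes of 0.207 (WT LICs against LSK cells) and 0.232 (between LIC groups), and Socs1 lay under background.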
